A study of Mus musculus with 8 samples.

Results

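Wnt and Notch are signalling systems by which neighbouring cells of an epithelium set each other's fate, and 10 genes that carry them were followed in lung epithelial cells of mice given aerosols of LPS, the endotoxin of Escherichia coli, or of PBS. The members are the Wnt ligands Wnt7b and Wnt4, the Wnt receptor Fzd2, the R-spondin receptor Lgr4, the transducer Ctnnb1, the Wnt target Axin2, the Notch receptors Notch1 and Notch2, the Notch ligand Jag1 and the Notch target Hes1. They were matched by gene symbol, and 9 of the 10 were found among the 13265 genes of the table. Lgr4 was not analysed here. The 3 mice of the LPS group and the 5 mice of the PBS group were C57BL6 by their labels, wild type (wt) by their column names and female by the methods. The methods name a young and an old age class for the mice of the study, and which class these mice belonged to is given neither there nor in the labels. Aerosol sessions of 30 min were given 3 times a week over 10 weeks, with LPS at 0.5 mg/ml in PBS for the first group and PBS alone for the second. From each animal 10000 cells positive for EpCAM and negative for CD31 and CD45 were sorted, so each library pools every epithelial cell type of the lung. Libraries are named by the number in their column, namely s4, s14 and s18 for LPS and s1, s2, s6, s11 and s16 for PBS, which cannot be tied to the replicate numbers of the labels.

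Wnt ligands are acylated in the endoplasmic reticulum, leave the cell and bind Frizzled receptors with an LRP co-receptor, which spares β-catenin from degradation so that it can act with TCF/LEF factors in the nucleus. In the mouse lung this pathway is known to maintain alveolar type II cells and to guide regeneration of the alveolus. Notch receptors are cut after contact with a Jagged or Delta ligand on the adjoining cell, and their intracellular part joins RBPJ and Mastermind proteins to switch on genes such as Hes1. In the mouse airway Notch is known to favour the secretory over the ciliated fate.

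Transcripts were read by bulk MARS-seq, a 3′ method that counts each captured molecule once through a unique molecular identifier (UMI). The libraries held 2739340 to 4445431 UMIs in LPS mice and 2232727 to 2890560 in PBS mice, and 3 UMIs stand for 0.667 to 1.45 CPM (UMIs relative to library size, scaled by TMM). Because one tag stands for one transcript whatever its length, CPM values of different genes are set side by side without division by length. Epcam was at 107 to 137 CPM in LPS mice and 107 to 148 CPM in PBS mice. Pecam1, the gene of CD31, was at 78.3 to 167 CPM in LPS mice and 72.8 to 172 CPM in PBS mice, and Ptprc, the gene of CD45, at 23.1 to 37.2 CPM in LPS mice and 7.68 to 35.5 CPM in PBS mice, so transcripts of the cells gated out were present in every library. Of 12 macrophage markers 7 were called higher in LPS mice, with a summed level of 873 to 1340.2 CPM against 255 to 541 CPM in PBS mice. Marker sums of ciliated cells were 4725 to 5379 CPM in LPS mice and 1244 to 3577 CPM in PBS mice, those of alveolar type II cells 94787 to 98440.4 CPM in LPS mice and 111449 to 164778 CPM in PBS mice, and in both lists the groups did not overlap, while 0 of 10 ciliated and 0 of 8 type II genes were called. In bulk counts fewer cells of a type and less RNA per cell cannot be told apart.

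None of the 9 members was called in LPS against PBS mice (edgeR quasi-likelihood test, adjusted p under 0.05 over all 12661 genes tested and the minimum fold change of the methods), where 1.46% of all genes were called higher and 0.569% lower. At an unadjusted p under 0.05 both Wnt ligands and Hes1 stood on the higher side (3 of 9, against 10.4% of all genes), and Axin2 and Fzd2 on the lower side (2 of 9, against 7.64%). The members were chosen with earlier results of these data known, so their comparison with all genes is not independent. Wnt7b was the 1 member whose LPS libraries all lay above the PBS libraries, as 8.52% of all genes did, and Fzd2 the 1 whose LPS libraries all lay below, as 5.86% did. With DESeq2, which called 3.16% of genes higher, and with limma-voom, which called 1.38%, Wnt7b was called and the other 8 members were not.

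**Figure D1:**
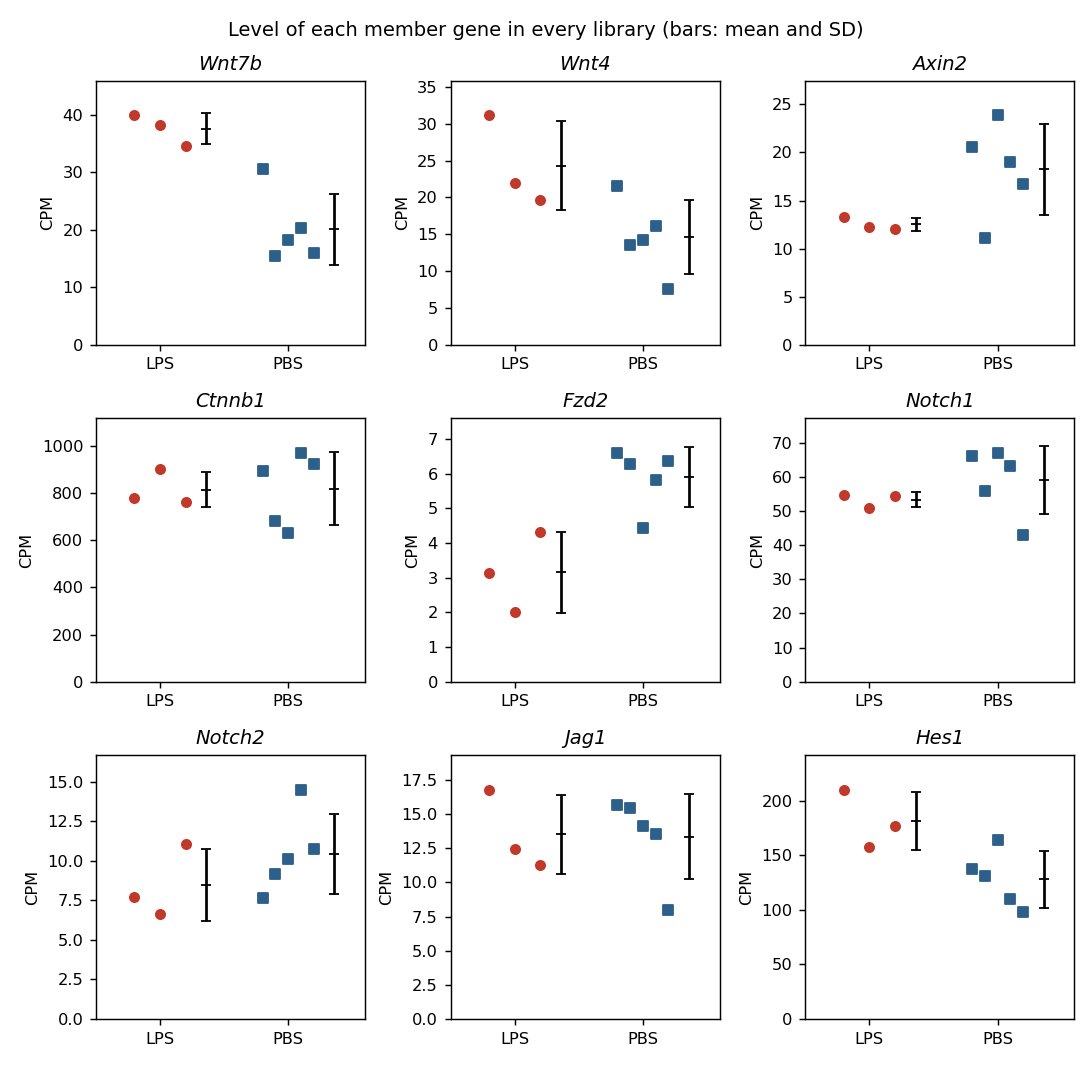
CPM of the 9 member genes (y axis, a separate scale for each gene starting at 0) in the 3 LPS libraries (red circles) and the 5 PBS libraries (blue squares), with mean and SD as black bars. Wnt7b at 34.6 to 39.9 CPM in LPS mice lies above all PBS libraries, Fzd2 at 2.00 to 4.32 CPM lies below them, and the groups overlap in the other 7 genes.

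Wnt7b encodes a Wnt ligand of lung epithelium, known in the mouse from lung development and, in the adult alveolus, from type I cells. It was at 34.6, 39.9 and 38.3 CPM in LPS libraries s4, s14 and s18, against 30.6, 20.3, 15.9, 15.4 and 18.2 CPM in PBS libraries s1, s2, s6, s11 and s16. The LPS libraries were close to each other and all above the PBS libraries, of which s1 stood highest. The log2 fold change was 0.89 (standard error 0.22, 95% confidence interval 0.42 to 1.36), or 1.85-fold, with an adjusted p of 0.060 from edgeR's quasi-likelihood test. The adjusted p was 0.011 with DESeq2 and 0.044 with limma-voom. Without PBS library s1 the log2 fold change was 1.09 and the gene was called (edgeR adjusted p = 0.012), and over the single libraries left out the adjusted p ran up to 0.22. Without PBS libraries s6, s11 and s16 the log2 fold change was 0.57 (edgeR adjusted p = 0.20). The type I cell markers summed to 3077 to 3579 CPM in LPS mice and 3085 to 3939 CPM in PBS mice, and none of the 8 tested was called. Ciliated marker sums did not overlap between the groups, at 4725 to 5379 CPM in LPS mice and 1244 to 3577 CPM in PBS mice. They had the same order of LPS libraries as Wnt7b, s14, s18 and s4 from the top, and the same highest PBS library, s1. The lowest PBS library was s6 for these sums and s11 for Wnt7b. The part of ciliated or type I cells in the Wnt7b difference was not tested. Wnt7b occupies positions 85535437 to 85581821 of chromosome 15 (GRCm38, mm10), where the antisense gene AU022754 overlaps it. AU022754 had a log2 fold change of 1.12 (edgeR adjusted p = 0.071). The counting is not stated to use strand, so whether reads of the pair were told apart is not known here.

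Wnt4 (chromosome 4, 137277635 to 137299501), a ligand that acts through several Frizzled receptors, was at 19.7, 31.1 and 22.0 CPM in LPS libraries s4, s14 and s18, against 21.6, 16.1, 7.57, 13.5 and 14.2 CPM in PBS libraries s1, s2, s6, s11 and s16. PBS library s1 reached into the LPS range, and PBS library s6 was the lowest of all. edgeR gave a log2 fold change of 0.71 (standard error 0.28, 95% confidence interval 0.11 to 1.32, edgeR adjusted p = 0.20). It was 0.36 without PBS libraries s6, s11 and s16 (edgeR adjusted p = 0.50), and 0.51 to 0.90 over the single libraries left out, lowest without LPS library s14. The highest and the lowest library for Wnt4, LPS library s14 and PBS library s6, were also the highest and the lowest for the ciliated cell markers, at 5379 CPM in s14 and 1244 CPM in s6. The part of ciliated cells in the Wnt4 difference was not tested. The UMI count of Wnt7b exceeded that of Wnt4 in all 8 libraries, by 1.28 to 1.76 times in LPS mice and 1.14 to 2.11 times in PBS mice.

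Fzd2 (chromosome 11, 102604431 to 102608058), a Frizzled receptor known from lung mesenchyme as well as epithelium, was the least abundant member. It had 18, 9 and 9 UMIs in LPS libraries s4, s14 and s18, or 4.32, 3.15 and 2.00 CPM, against 19, 18, 16, 13 and 11 UMIs in PBS libraries s1, s2, s6, s11 and s16, or 6.61, 5.81, 6.38, 6.27 and 4.45 CPM. All LPS libraries were below all PBS libraries, with LPS library s4 and PBS library s16 next to each other. LPS against PBS, the log2 fold change was -0.90 (standard error 0.32, 95% confidence interval -1.60 to -0.20, edgeR adjusted p = 0.17). Fibroblast and mural markers summed to 518, 398 and 189 CPM in LPS libraries s4, s14 and s18, against 742, 753, 432, 893 and 452 CPM in PBS libraries s1, s2, s6, s11 and s16. The sums followed the order of Fzd2 in the LPS libraries but not in the PBS libraries, where s6 had the lowest sum and, at 6.38 CPM, a Fzd2 level next to the highest. The 9 of these markers tested had a median log2 fold change of -0.89, and none was called. Col1a1 was at 0 in at least 1 library, and the part of these cells in the Fzd2 difference was not tested.

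**Figure D2:**
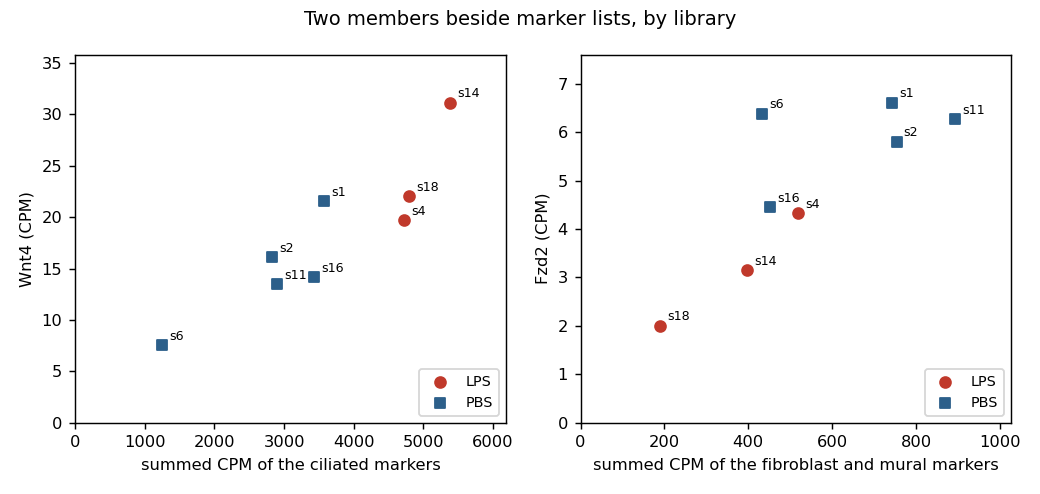
CPM of Wnt4 against the summed CPM of ciliated cell markers (left), and of Fzd2 against that of fibroblast and mural markers (right), by library, with LPS as red circles and PBS as blue squares. PBS library s6 has the lowest Wnt4 (7.57 CPM) and the lowest ciliated sum (1244 CPM), and LPS library s18 the lowest Fzd2 (2.00 CPM) and the lowest fibroblast and mural sum (189 CPM).

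Ctnnb1 encodes β-catenin, which links cadherins to the cytoskeleton and transduces the Wnt signal, and it was by far the most abundant member. It was at 764, 781 and 901 CPM in LPS libraries s4, s14 and s18, against 894, 972, 922, 680.2 and 629 CPM in PBS libraries s1, s2, s6, s11 and s16. The LPS libraries lay within the PBS range, in which s11 and s16 were low and the other 3 high. The log2 fold change was -0.01 (standard error 0.17, 95% confidence interval -0.38 to 0.37, edgeR adjusted p = 0.99), which as a fold runs from 0.766 to 1.29. The scatter between PBS mice, an SD of 18.8% of the mean, was well above the 2.15% that counting alone gives. Ctnnb1 (chromosome 9, 120933400 to 120960507) overlaps Ulk4 on the opposite strand.

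Axin2, a scaffold of the complex that degrades β-catenin, is induced by Wnt signalling in turn and is commonly used as its read-out (chromosome 11, 108917828 to 108950783). It was at 12.0, 13.3 and 12.2 CPM in LPS libraries s4, s14 and s18, against 20.5, 19.0, 16.7, 11.1 and 23.9 CPM in PBS libraries s1, s2, s6, s11 and s16. PBS library s11 was the lowest of all 8, and the other 4 PBS libraries lay above every LPS library. edgeR gave a log2 fold change of -0.56 (standard error 0.23, 95% confidence interval -1.06 to -0.05, edgeR adjusted p = 0.23). Over the single libraries left out it ran from -0.68 without PBS library s11 (edgeR adjusted p = 0.16) to -0.45 without PBS library s16 (edgeR adjusted p = 0.34), and it was -0.48 without PBS libraries s1 and s2 (edgeR adjusted p = 0.32). The ratio of Wnt7b to Axin2 UMIs, chosen after the values were seen and given without a test, does not depend on scaling between libraries. It was 2.88, 3.00 and 3.13 in LPS libraries s4, s14 and s18, and 1.49, 1.07, 0.952, 1.39 and 0.763 in PBS libraries s1, s2, s6, s11 and s16, so ligand and target lay farther apart in every LPS mouse. The genes whose centred log2 CPM followed Axin2 most closely over the 8 libraries were Stard8, Pde1b and Hbegf, with root mean square distances of 0.16, 0.17 and 0.17 among 8437 genes over 10 CPM.

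Of 13 genes listed as Wnt targets 11 were tested, and all 11 had a negative log2 fold change, as 52.7% of all genes did. None was called by edgeR, 3 (Ccnd1, Nkd1 and Axin2) had an unadjusted p below 0.05, against 7.64% of all genes on the lower side, and the median was -0.36 beside -0.02 over all genes. Of its tested genes the list shares Rnf43, Znrf3, Notum and Tcf7 with the other Wnt lists. The list was chosen with earlier results of these data known, so its comparison with all genes is not independent. Ccnd1, which encodes cyclin D1, was at 182, 174 and 141 CPM in LPS libraries s4, s14 and s18, against 217, 222, 251, 343 and 372 CPM in PBS libraries s1, s2, s6, s11 and s16. Its LPS libraries all lay below the PBS libraries, as in 5.86% of all genes, and edgeR gave -0.76 as the log2 fold change (standard error 0.20, edgeR adjusted p = 0.086, and 0.020 with DESeq2). Nkd1, a feedback inhibitor that binds Dishevelled, averaged 31.4 ± 2.76 CPM in LPS mice and 40.1 ± 4.11 CPM in PBS mice (SD, n = 3 and n = 5), also without overlap (edgeR adjusted p = 0.22). Sp5, a transcription factor induced directly by Wnt, was at 48.7 CPM in LPS mice and 50.4 CPM in PBS mice (log2 fold change -0.05, edgeR adjusted p = 0.94). Of these genes Ccnd1 and Myc answer to many signals other than Wnt. In PBS mice Ccnd1 had the same order of libraries as the alveolar type II marker sums, from 111449 CPM in s1 to 164778 CPM in s16. In LPS mice these sums were lower, at 94787 to 98440 CPM, and Ccnd1 did not follow their order. The part of type II cells in the Ccnd1 difference was not tested.

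The 250 bases before a transcription start are shown for Axin2 and Nkd1, whose log2 fold changes were -0.56 and -0.36, and for Sp5, at -0.05, to set the read-outs' own regulatory sequence beside their values. They are RefSeq sequences on GRCm38.p6, plus strand, 5′ to 3′, at chr11:108920099-108920348 for Axin2, chr8:88527383-88527632 for Nkd1 and chr2:70474673-70474922 for Sp5, and none overlaps an annotated exon. The Axin2 window lies inside the gene's span, before a start downstream of its first. Capitals mark TCF/LEF-type matches, searched as TCAAAG and ACAAAG on both strands.
Axin2: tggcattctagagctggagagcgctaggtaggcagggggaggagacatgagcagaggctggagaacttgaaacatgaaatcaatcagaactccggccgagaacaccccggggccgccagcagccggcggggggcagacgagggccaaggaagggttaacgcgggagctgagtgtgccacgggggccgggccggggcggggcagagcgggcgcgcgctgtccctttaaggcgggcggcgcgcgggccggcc
Nkd1: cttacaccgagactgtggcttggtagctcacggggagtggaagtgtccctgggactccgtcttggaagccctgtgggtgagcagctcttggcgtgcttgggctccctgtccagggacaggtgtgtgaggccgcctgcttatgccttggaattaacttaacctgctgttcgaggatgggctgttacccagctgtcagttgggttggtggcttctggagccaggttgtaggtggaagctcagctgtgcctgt
Sp5: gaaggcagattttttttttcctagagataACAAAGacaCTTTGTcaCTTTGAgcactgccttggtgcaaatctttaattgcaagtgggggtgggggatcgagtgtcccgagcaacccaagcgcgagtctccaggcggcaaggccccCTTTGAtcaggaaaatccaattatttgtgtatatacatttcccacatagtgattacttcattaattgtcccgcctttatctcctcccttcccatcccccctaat
Sp5 held 4 matches, beginning 221, 212, 204 and 104 bases before the start, and Axin2 and Nkd1 held none in these windows. Among all 32851 windows of this length 27.6% held a match and 0.0944% held 4 or more. The window of Axin2 was the richest of the 3 in G and C, at 69.2% against 58.4% in Nkd1 and 46.0% in Sp5. Windows could be matched for 7 of the 10 members and for 7 of the 13 Wnt targets, and a match describes letters, not binding. Of the targets not shown, Nkd2, Rnf43 and Tcf7 held no match, and Lef1 held 3 in a single one of its windows. A link between matches and fold changes was not tested.

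Upstream of the receptors, Porcn rose in LPS mice. It was the 1 of 59 tested Wnt pathway genes that was called, a share near the 1.46% of all genes called higher, and none was called lower. Porcn encodes the acyltransferase of the endoplasmic reticulum that lipidates Wnt ligands before secretion. It was at 151, 161 and 159 CPM in LPS libraries s4, s14 and s18, against 95.3, 71.3, 42.7, 60.8 and 76.0 CPM in PBS libraries s1, s2, s6, s11 and s16, with no overlap. LPS against PBS, the log2 fold change was 1.18 (standard error 0.20, 95% confidence interval 0.74 to 1.62, edgeR adjusted p = 0.015, and 3.0e-05 with DESeq2). The size of the change was 1.04 to 1.32 over the single libraries left out, but the call ended without LPS library s4, s14 or s18 or PBS library s11 (edgeR adjusted p = 0.066, 0.066, 0.072 and 0.055). PBS library s6, lowest for Porcn, was also lowest for the ciliated markers, and without it the log2 fold change was 1.04 (edgeR adjusted p = 0.0086). The ciliated sums did not overlap without s6 either, at 4725 to 5379 CPM in LPS mice and 2832 to 3577 CPM in PBS mice, and their part in the Porcn difference was not tested. Wls, which escorts acylated Wnt ligands to the cell surface, was at 18.1 CPM in LPS mice and 20.3 CPM in PBS mice (log2 fold change -0.16, edgeR adjusted p = 0.74).

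Among the other Wnt ligands, Wnt11, known from non-canonical signalling, had a larger log2 fold change than Wnt7b. It was at 35.6, 51.4 and 38.3 CPM in LPS libraries s4, s14 and s18, against 29.9, 27.7, 9.17, 17.8 and 22.6 CPM in PBS libraries s1, s2, s6, s11 and s16, with all LPS libraries above, as in 8.52% of all genes (log2 fold change 0.94, standard error 0.29, edgeR adjusted p = 0.12). Of 19 ligands listed 7 were tested, of which 3 had a positive and 2 a negative fold change with an unadjusted p below 0.05 (10.4% and 7.64% of all genes), and the median was 0.04. The negative ones, Wnt5a (0.728 CPM in LPS mice and 2.06 CPM in PBS mice) and Wnt3a (1.83 CPM in LPS mice and 3.96 CPM in PBS mice), had 35 and 76 UMIs over all 8 libraries. Of 13 receptors and co-receptors tested none was called. At an unadjusted p below 0.05 stood 3 with lower values in LPS mice, Fzd2, Lrp5 and Ryk, against 7.64% of all genes. Lrp5, a co-receptor of Frizzled, averaged 39.5 ± 4.95 CPM in LPS mice and 60.3 ± 12.8 CPM in PBS mice (SD, n = 3 and n = 5; log2 fold change -0.60, edgeR adjusted p = 0.12). Wif1, a secreted inhibitor that binds Wnt ligands, overlapped between the groups and had a log2 fold change of 0.83 (edgeR adjusted p = 0.17), and Kremen1, a receptor for the inhibitor Dickkopf, one of 0.40 (edgeR adjusted p = 0.28). Rspo1, a secreted enhancer of Wnt signals, was at 5.90 CPM in LPS mice and 3.25 CPM in PBS mice (edgeR adjusted p = 0.24), and Znrf3, a ligase that removes Frizzled receptors, had a log2 fold change of -0.47 (edgeR adjusted p = 0.39). In the β-catenin cascade 0 of 20 genes were called and 1 had an unadjusted p below 0.05, Apc, a subunit of the degradation complex, at 4.46 CPM in LPS mice and 7.04 CPM in PBS mice (edgeR adjusted p = 0.23). Tcf7l1, a TCF factor that acts mostly as a repressor, had a log2 fold change of -0.35 (edgeR adjusted p = 0.30).

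**Figure D3:**
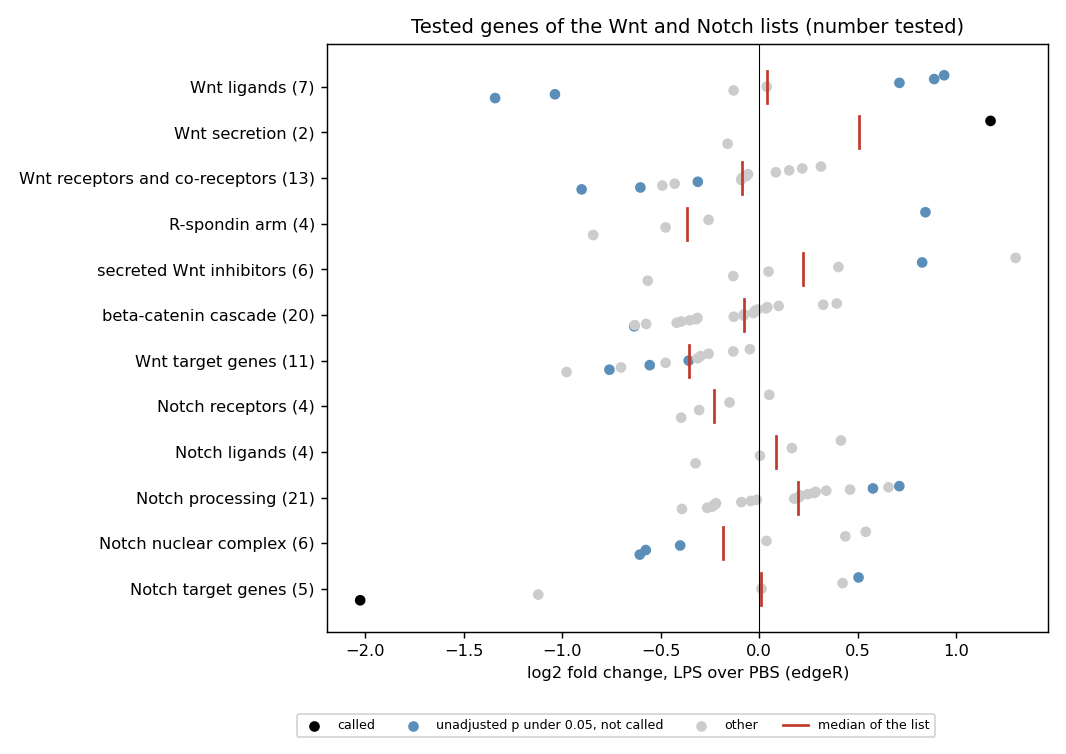
log2 fold change of LPS over PBS (x axis) for each tested gene of 7 Wnt lists and 5 Notch lists, with black for called genes, blue for an unadjusted p under 0.05, grey for the rest and a red line at each median. Porcn at 1.18 and Hes2 at -2.03 are the called genes, and all 11 Wnt targets lie left of 0. The lists were chosen with earlier results of these data known.

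None of the 4 Notch receptors was called, and Notch1 was the most abundant of them. Notch1 (chromosome 2, 26457902 to 26503822, overlapped by 0610009E02Rik on the opposite strand) was at 54.5, 54.6 and 50.9 CPM in LPS libraries s4, s14 and s18, against 66.1, 63.2, 43.1, 56.0 and 67.1 CPM in PBS libraries s1, s2, s6, s11 and s16. The LPS libraries were tightly grouped inside the wider PBS range. The log2 fold change was -0.15 (standard error 0.16, 95% confidence interval -0.49 to 0.19, edgeR adjusted p = 0.67). Notch2, the receptor known from mice to act in the choice between secretory and ciliated airway cells (chromosome 3, 98013538 to 98150367), was at 11.1, 7.70 and 6.67 CPM in LPS libraries s4, s14 and s18, against 7.65, 14.5, 10.8, 9.17 and 10.1 CPM in PBS libraries s1, s2, s6, s11 and s16. With 19 to 46 UMIs per library its interval was wider, from -0.89 to 0.28 around a log2 fold change of -0.30 (standard error 0.27, edgeR adjusted p = 0.59). Notch1 had 4.93 to 7.63 times the UMIs of Notch2 in LPS mice and 4.00 to 8.64 times in PBS mice. Notch3 and Notch4, receptors known mainly from mural and endothelial cells, were at means of 12.1 and 20.1 CPM in LPS mice and 15.8 and 19.1 CPM in PBS mice.

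Jag1 (chromosome 2, 137081451 to 137116520), the Notch ligand among the members, averaged 13.5 ± 2.90 CPM in LPS mice and 13.4 ± 3.13 CPM in PBS mice (SD, n = 3 and n = 5). By library it was at 11.3, 16.8 and 12.5 CPM in LPS libraries s4, s14 and s18, against 15.7, 13.5, 7.97, 15.4 and 14.2 CPM in PBS libraries s1, s2, s6, s11 and s16. PBS library s6 stood below all the others. edgeR gave a log2 fold change of 0.0045 (standard error 0.25, 95% confidence interval -0.53 to 0.54, edgeR adjusted p = 1.00), and without s6 it was -0.13. Jag2, a related ligand, was at 23.6 ± 3.77 CPM in LPS mice and 17.5 ± 4.00 CPM in PBS mice (SD, n = 3 and n = 5; log2 fold change 0.42, edgeR adjusted p = 0.33), and Dll4 had a log2 fold change of -0.32 (edgeR adjusted p = 0.62). None of the 4 ligands tested was called. Dll4 was highest of all in PBS library s2 (16.4 CPM) and lowest in LPS library s18 (6.89 CPM). These libraries also had the highest and the lowest endothelial marker sum, at 1300 and 586 CPM. The part of endothelial cells in the Dll4 values was not tested.

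Hes1 (chromosome 16, 30065357 to 30067796), a repressor of the bHLH family and a direct Notch target in many tissues, was the second most abundant member. It was at 177, 210.3 and 158 CPM in LPS libraries s4, s14 and s18, against 138, 110 and 97.7 CPM in PBS libraries s1, s2 and s6 and 131 and 164 CPM in PBS libraries s11 and s16. PBS library s16 lay above LPS library s18, and the other 4 PBS libraries lay below all LPS libraries. LPS against PBS, the log2 fold change was 0.51 (standard error 0.17, 95% confidence interval 0.13 to 0.88), or 1.42-fold, and did not pass (edgeR adjusted p = 0.15, and 0.084 to 0.46 with single libraries left out). LPS library s14 and PBS library s6, highest and lowest of all for Hes1, were also so for the ciliated markers, at 5379 and 1244 CPM. Club cell markers summed to 12931, 22596 and 32302 CPM in LPS libraries s4, s14 and s18. In PBS libraries s1, s2, s6, s11 and s16 they summed to 10847, 7799, 8454, 14904 and 54614 CPM. Within the PBS group s16 was highest for Hes1 and for the club sum. Within the LPS group s18 had the highest club sum and the lowest Hes1. The part of ciliated or club cells in the Hes1 difference was not tested. Relative to its receptor, and again as a ratio chosen after the values were seen and given without a test, Hes1 had 3.25, 3.85 and 3.10 UMIs per Notch1 UMI in LPS libraries s4, s14 and s18, against 2.08, 1.73, 2.27, 2.34 and 2.45 in PBS libraries s1, s2, s6, s11 and s16. The ratio was higher in every LPS mouse. The nearest profiles to Hes1 were those of Ebp, Mrps6 and Liph, with root mean square distances of 0.094, 0.096 and 0.098 on the log2 scale over the 8 libraries.

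Hes2, a bHLH repressor of the Hes family, fell. It was the 1 of 40 tested genes of the Notch lists that was called, where 0.569% of all genes were called lower, and none was called higher. It was listed beside Hes1 as a family member and, unlike Hes1, is not generally held to be an effector of Notch. Hes2 had 15, 3 and 29 UMIs in LPS libraries s4, s14 and s18, or 3.60, 1.05 and 6.45 CPM, against 14.3, 13.9, 19.9, 13.02 and 19.4 CPM in PBS libraries s1, s2, s6, s11 and s16. Every LPS library was below every PBS library, and s14 was at the level of 3 UMIs. The log2 fold change was -2.03 (standard error 0.38, 95% confidence interval -2.86 to -1.19, edgeR adjusted p = 0.023, and 4.8e-05 with DESeq2). The call ended without LPS library s4 or PBS library s11 (edgeR adjusted p = 0.12 and 0.055) and without PBS libraries s6, s11 and s16 together (0.078), while the log2 fold change stayed between -2.68 and -1.66. Nrarp, a feedback inhibitor that Notch induces, was at 14.3 CPM in LPS mice and 14.1 CPM in PBS mice (log2 fold change 0.01, edgeR adjusted p = 0.99), and Hey1 had a log2 fold change of 0.42 (edgeR adjusted p = 0.52). The 5 tested genes of this list had a median of 0.01.

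Of 21 tested genes that process or traffic Notch and its ligands none was called, and 2 had higher values in LPS mice at an unadjusted p under 0.05, against 10.4% of all genes. They were Neurl1a, a ligase that acts on Notch ligands (log2 fold change 0.71, edgeR adjusted p = 0.13), and Numbl, of the Numb family of Notch inhibitors (0.58, edgeR adjusted p = 0.17). In the nuclear complex 3 of 6 genes (Maml1, Maml3 and Spen) had lower values in LPS mice at that level, against 7.64% of all genes, and none was called. This list, like the others, was chosen with earlier results of these data known. Maml1, a Mastermind co-activator, was at 14.9, 15.4 and 13.3 CPM in LPS libraries s4, s14 and s18, against a PBS mean of 22.1 ± 4.63 CPM (SD, n = 5; edgeR adjusted p = 0.15). Spen, a co-repressor that binds RBPJ, was at 62.9, 50.0 and 62.1 CPM in LPS libraries s4, s14 and s18, against 68.2 to 86.5 CPM in PBS mice (edgeR adjusted p = 0.15). In both genes all LPS libraries lay below the PBS libraries, as in 5.86% of all genes. Rbpj itself had a log2 fold change of 0.44 (edgeR adjusted p = 0.40).

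**Figure D4:**
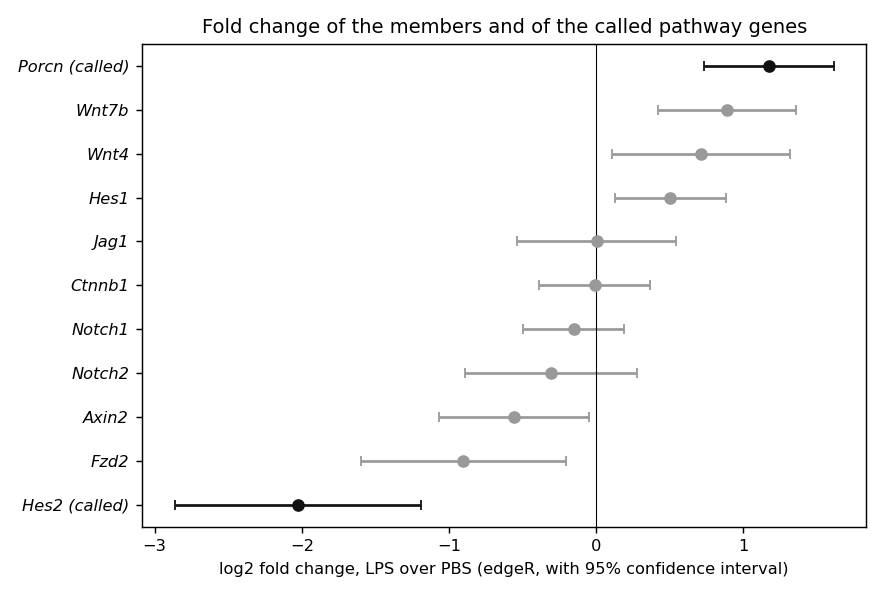
log2 fold change of LPS over PBS from edgeR (x axis) with its 95% confidence interval for the 9 members (grey) and for the called pathway genes Porcn and Hes2 (black). The intervals of Wnt7b, Wnt4, Hes1, Axin2 and Fzd2 exclude 0 before adjustment over all genes, and those of Jag1, Ctnnb1, Notch1 and Notch2 include it.

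By level the members spanned the table, from Ctnnb1 at the 99.0th percentile of mean CPM to Fzd2 at the 19.9th. Ctnnb1, Hes1 and Notch1 held the first places in both groups, with ranges that did not touch. In LPS mice Wnt7b, Wnt4, Jag1, Axin2, Notch2 and Fzd2 followed, and of these neighbours Jag1 and Axin2 overlapped. In PBS mice the order was Wnt7b, Axin2, Wnt4, Jag1, Notch2 and Fzd2, where each neighbour overlapped the next from Wnt7b to Notch2 and Fzd2 lay apart below. Axin2 thus stood below Wnt4 in every LPS library, and in 3 of 5 PBS libraries it stood above it. The scatter between PBS mice was widest in Wnt4 and Wnt7b, with SDs of 34.6% and 30.8% of the mean where counting alone gives 16.1% and 13.7%. In Fzd2 it was 14.6%, below the 25.5% that counting alone gives.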

How the data were processed

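Bulk MARS-seq libraries of sorted lung epithelium from 3 LPS and 5 PBS mice were used. The authors ran UTAP, a transcriptome pipeline, on reads at the 3′ ends of RefSeq genes (mm10) and deposited raw UMI counts per gene and library; an aligner was not given in the sources used here. Also deposited by the authors, and not used, were 16 columns of values per library (a signal of counts divided by size factors, and log2 values from a regularized transformation), the mean signal, and log2 fold changes and p-values of their own comparison with DESeq2.

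Genes with at least 30 UMIs over the 8 libraries, the minimum of the methods, were normalized by TMM and tested in edgeR 4.0.16 (glmQLFit, glmQLFTest; R 4.3.3) with Benjamini-Hochberg adjustment over 12661 genes. The standard error is the log2 fold change over the square root of F. Alternatives were DESeq2 1.42.0, limma-voom (limma 3.58.1), DESeq2 size factors, other filters, no minimum fold, each library left out, and 2 sets of PBS libraries left out. The fits were tested on simulated data. The genes named are the members, every called gene of a pathway list, the 2 with the smallest p per list of at least 3 tested genes, and the 3 nearest profiles to Axin2 and Hes1 (log2 of CPM plus 0.5); other list genes (Wls, Wnt3a, Wnt5a, Ryk, Sp5, Myc, Notch4, Maml3, Rbpj, Nrarp, Hey1) were chosen after their values were seen, and AU022754, Ulk4 and 0610009E02Rik are named because they overlap members. Members and lists were chosen with earlier results of these data known, so their shares are not independent of the shares of all genes. Marker lists of club, basal, endothelial and lymphoid cells (5, 1, 10 and 5 genes tested) had no called gene. Their sums varied between libraries, for club cells from 12931 to 32302 CPM in LPS mice and 7799 to 54614 CPM in PBS mice. Endothelial sums ran from 586 to 1265 CPM in LPS mice and 678 to 1300 CPM in PBS mice. Positions of genes and promoters follow RefSeq annotation of GRCm38 (mm10), and overlapping genes and exons the GENCODE M21 annotation of the same assembly.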

Additional observations from a re-analysis of the deposited data

Results flagged for a closer look

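Jag1 in PBS library s6, at 7.97 CPM (20 UMIs), lay far below the other PBS libraries, which were at 13.5 to 15.7 CPM. Of the 9 members this was the 1 whose lowest or highest PBS library stood so far from its nearest neighbour (Dixon's test at the 95% level, in the 5 PBS libraries), and chance alone flags about 1 in 20 such groups. The statistic, 0.726, was just above the critical value of 0.71, and no adjustment was made for the 9 members examined. The same library had the lowest Wnt4, Notch1 and Hes1 of the PBS group and the lowest sum of ciliated cell markers.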

How the results depend on the processing

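No paired analysis was possible because the columns carry numbers that are in no sample label, so that replicate numbers could not be tied to libraries. The numbers of genes called higher and lower over the whole table, 185 and 72, were 369 and 191 with DESeq2, 527 and 381 without PBS libraries s1 and s2, and 125 and 47 without PBS libraries s6, s11 and s16. With single libraries left out they ran from 47 to 259 and from 12 to 95. The number of members called higher was 1 (Wnt7b) with DESeq2, with limma-voom and without PBS libraries s1 and s2, and 0 to 1 with single libraries left out. Wnt pathway genes called higher and lower, 1 and 0, were 2 and 1 with DESeq2, 2 and 0 with limma-voom, 4 and 2 without PBS libraries s1 and s2, and 0 to 3 higher with single libraries left out. Notch pathway genes called higher and lower, 0 and 1, were 1 and 2 without PBS libraries s1 and s2, 0 and 0 without PBS libraries s6, s11 and s16, and 0 to 1 lower with single libraries left out. The cause of these shifts was not tested. Ctnnb1, close to no change, turned to 0.011 with limma-voom and 0.13 without PBS libraries s1 and s2, and ran from -0.093 to 0.061 with single libraries left out. Jag1 turned to -0.0025 with limma-voom and -0.12 without PBS libraries s6, s11 and s16, and ran from -0.17 to 0.12 with single libraries left out. The other 7 members kept their direction under all 15 alternatives. Both sets of PBS libraries were picked from an earlier look at these data.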

Other observations

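PBS library s6, the lowest in ciliated cell markers, was also the lowest library of all 8 for Wnt11 (9.17 CPM), Wif1 (11.6 CPM), Kremen1 (44.3 CPM) and Porcn (42.7 CPM). LPS library s14, the highest in these markers, was the highest of all 8 for the same genes, at 51.4, 52.1, 106 and 161 CPM. The same lowest and highest libraries were found for Wnt4, Hes1, Jag1, Jag2 and Neurl1a. Among these Jag1, at 7.97 CPM in s6 and 16.8 CPM in s14, had a log2 fold change of 0.0045. The share of all genes with these extremes was not counted. Ulk4, which overlaps Ctnnb1 on the other strand, was at 75.7 CPM in LPS mice and 42.5 CPM in PBS mice (log2 fold change 0.83, edgeR adjusted p = 0.17).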
